A study of Arabidopsis thaliana with 5 samples.

Results

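The 379 regions described here are FLAG-NDX peaks on the chromosome arms of Arabidopsis thaliana that lay outside genes and had no counterpart in the NDX-GFP list. They were chosen from a FLAG-NDX list of 2243 peaks, of 2826 peaks in both lists together. A peak was taken when it overlapped no NDX-GFP peak, when its midpoint lay in no gene or pseudogene of the TAIR10.1 RefSeq annotation, and when that midpoint was outside a zone of 2.5 Mb on either side of the gene-poor middle of each chromosome. These zones ran from 12.8 to 17.8 Mb on chromosome 1, from 2.5 to 7.5 Mb on chromosome 2, from 11.6 to 16.6 Mb on chromosome 3, from 1.0 to 6.0 Mb on chromosome 4 and from 9.0 to 14.0 Mb on chromosome 5. Absence from the NDX-GFP list, the lack of a gene at the midpoint and the place on the arms are therefore how the regions were picked and not results.

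The series is a chromatin immunoprecipitation sequencing (ChIP-seq) experiment on Nodulin homeobox (NDX). It holds 5 samples of 10-day-old seedlings, of which 2 are FLAG-NDX immunoprecipitations with an anti-FLAG antibody, 1 is the FLAG-NDX input and 2 are NDX-GFP immunoprecipitations with an anti-GFP antibody. The genotypes are given as flag-NDX / ndx1-1(FRI) / flc-2 and NDX-GFP /ndx1-1(FRI) / flc-2, so both tagged lines carry the same ndx1-1(FRI) and flc-2 alleles. The growth protocol also names untagged ndx1-4 seedlings as a control, and no peak list of them or of the input was analysed here. The promoter that drives each tagged protein and the number of independent lines are not given in the sources used here. The labels name the tag antibodies, whereas the extraction protocol beside them describes digestion of protein and pull-down with S9.6, which recognises hybrids of DNA and RNA. The peaks are named here by the labelled antibody, and which procedure gave them cannot be told apart from the lists. Each line has 1 list, so every peak carries 1 pooled score of unstated unit, with no value for either immunoprecipitation. Read depth is unknown, there is no replicate error, and no difference below was tested: each share is set beside the same share of arm sequence.

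NDX is a plant homeodomain protein. Homeodomains are DNA-binding folds that typically contact short AT-rich sites, and NDX is known for binding at the 3' end of FLC, where the antisense transcript COOLAIR starts. Sequence before a gene start holds the promoter, where transcription factors and RNA polymerase II assemble. Sequence past a gene end is where transcription terminates and where antisense transcripts can begin. Arabidopsis arms are gene-dense, and their transposons and pseudogenes become more frequent towards the centromere.

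The 6 sequences that follow are from the 2 highest-scoring regions of each position class described below, among regions with no repeated sequence and with the whole peak clear of genes. They are shown because they are high-scoring peaks of each class whose 31-mers occur nowhere else in the genome. All are RefSeq TAIR10.1 sequence of the plus strand. Capitals mark a match to any of 11 short motifs searched on either strand, and a sequence without capitals has none.
bHLH145 promoter, chr5:20348041-20348175: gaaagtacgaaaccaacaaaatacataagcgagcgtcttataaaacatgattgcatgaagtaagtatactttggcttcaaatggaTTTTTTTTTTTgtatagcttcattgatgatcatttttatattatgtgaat
EXPA11 gene end, chr1:6997996-6998130: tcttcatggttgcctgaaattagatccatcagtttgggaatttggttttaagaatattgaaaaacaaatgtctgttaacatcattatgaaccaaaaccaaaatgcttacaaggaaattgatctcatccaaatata
AT5G08720 gene end, chr5:2840461-2840580: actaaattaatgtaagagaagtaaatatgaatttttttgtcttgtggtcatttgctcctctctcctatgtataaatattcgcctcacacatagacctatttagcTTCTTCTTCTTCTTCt
CYP708A1 to AT1G55947, chr1:20924896-20925000: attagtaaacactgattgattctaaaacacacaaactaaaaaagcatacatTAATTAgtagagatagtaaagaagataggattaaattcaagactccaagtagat
AT3G24780 to AT3G24790, chr3:9052366-9052515: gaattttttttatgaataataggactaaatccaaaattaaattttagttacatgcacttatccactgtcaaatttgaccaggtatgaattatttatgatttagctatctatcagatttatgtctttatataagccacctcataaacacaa
AT5G59990 to AT5G60000, chr5:24155836-24156000: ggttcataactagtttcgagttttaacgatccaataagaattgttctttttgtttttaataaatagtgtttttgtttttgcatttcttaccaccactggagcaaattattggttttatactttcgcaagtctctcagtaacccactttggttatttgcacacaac
The bHLH145 region holds an unbroken run of at least 9 T bases, which matches AAAAAAAAA on its minus strand. The region between CYP708A1 and AT1G55947 holds TAATTA, a core of many homeodomain sites. The region past AT5G08720 holds the repeat GAAGAAGAA on its minus strand. The other 3 sequences hold none of the 11 motifs.

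Position was read from the peak midpoint and protein-coding genes. The promoter window was the 1000 bp before a gene start and the gene-end window the 1000 bp past a gene end. The promoter window held 126 of 379 regions (33.2%, 95% exact Clopper-Pearson interval 28.5 to 38.2), whereas it covers 46.8% of arm bases outside genes. The gene-end window held 118 regions (31.1%, 26.5 to 36.1), against 33.5% of those bases. Neither window held 172 regions (45.4%, 40.3 to 50.5), against 34.1% of bases. The promoter share was thus below, and the share in neither window above, what arm sequence offers, and the gene-end share lay close to it. Regions in the promoter window alone numbered 89 (23.5%), against 32.4% of bases. Regions in the gene-end window alone numbered 81 (21.4%), against 19.1%, and 37 regions (9.76%) lay in both windows, against 14.4%. These intervals cover counting error only and treat regions as independent, although many lie in clusters or share sequence.

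**Figure D1:**
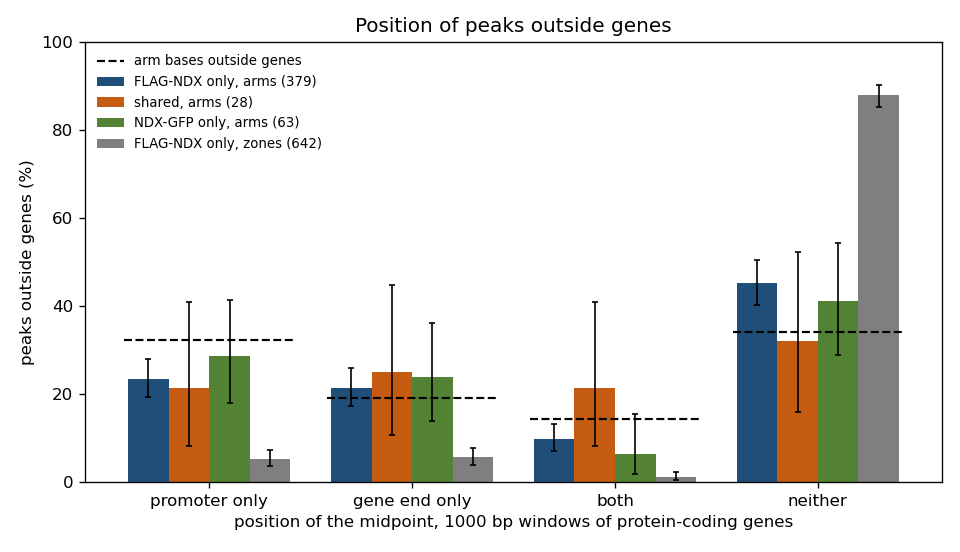
Share of peaks outside genes (y axis, percent) in each position class (x axis) for the 379 FLAG-NDX-only arm regions, the 28 arm peaks shared with NDX-GFP, the 63 NDX-GFP-only arm peaks and the 642 FLAG-NDX-only peaks in the pericentromeric zones. Error bars are 95% exact intervals and dashed lines the share of arm bases outside genes. The arm regions stood below the line for promoter only (23.5% against 32.4%) and above it for neither (45.4% against 34.1%).

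In percentage points the regions differed most from arm sequence next to gene starts and far past gene ends. The nearest protein-coding boundary was a gene start for 216 regions (57.0%, against 62.4% of arm bases) and a gene end for 163 (43.0%, against 37.6%). Within 250 bp before a start there were 30 regions (7.92%), against 15.4% of bases. Between 251 and 500 bp before a start there were 33 (8.71%, against 10.8%), and between 1001 and 2000 bp there were 62 (16.4%, against 12.8%). Past gene ends the nearest 250 bp held 42 regions (11.1%), close to the 11.3% of bases. Beyond 2000 bp past an end there were 44 regions (11.6%, against 4.65%). The median distance to a protein-coding gene was 875 bp and the largest 10829 bp.

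**Figure D2:**
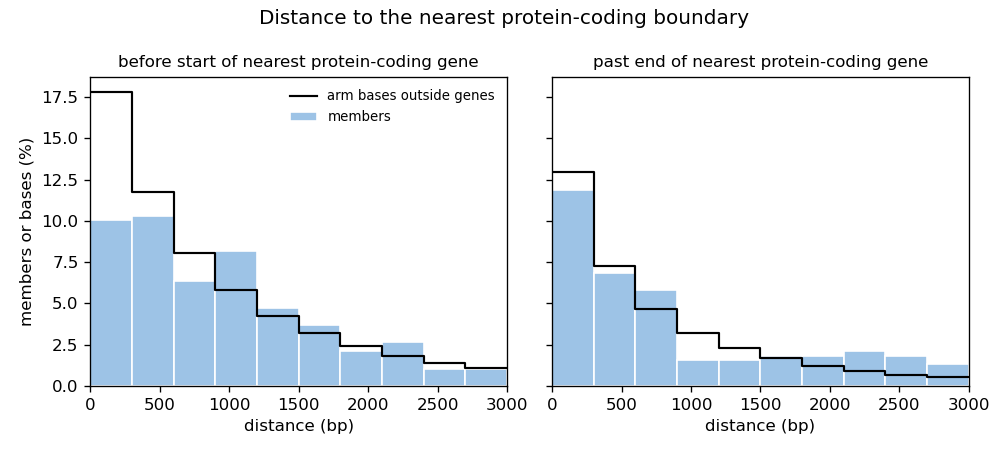
Percentage of the 379 regions (bars) and of arm bases outside genes (line) by distance in bp from the nearest protein-coding boundary, in bins of 300 bp, before gene starts (left) and past gene ends (right), up to 3000 bp. In percentage points the bars fell furthest below the line in the bin directly before gene starts.

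The nearest genes of any kind on either side were also set beside the background in spacing and orientation. They faced away from each other around 108 regions (28.5%, against 33.3% of arm bases), towards each other around 56 (14.8%, against 12.5%) and the same way around 214 (56.5%, against 54.3%), and 1 region lay at a chromosome end. The 95% exact interval of each orientation share held the background. For genes facing away it did so narrowly (24.0 to 33.33, against 33.25). These intervals treat regions as independent and cannot decide whether orientation differed. The gap between the flanking genes had a median of 2870.5 bp for the regions and 2346 bp for arm bases. Gaps under 1 kb held 52 regions (13.7%, against 19.6%), gaps of 1 to 2 kb held 85 (22.4%, against 23.7%), gaps of 2 to 5 kb held 156 (41.2%, against 39.7%) and gaps of 5 to 10 kb held 78 (20.6%, against 15%), with 7 (1.85%, against 2.11%) in longer gaps. The promoter share was compared within classes chosen after the data were seen. In gaps under 2 kb it was 51.1%, against 68.4% of arm windows, and in gaps of 2 to 5 kb 26.3%, against 35.8%. In gaps of 5 kb and over the shares were alike, 17.6% and 17.3%. At 4 Mb and more from a zone the promoter share was 30.5% against 50.96%, between 1 and 4 Mb 40% against 43.9%, and under 1 Mb 29.3% against 35.5%. Among regions under 30% GC it was 37.6% against 46.7%, at 30 to under 35% GC 36.2% against 46.1%, and at 35% GC and over 26.2% against 47.8%.

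The peak score differed little between position classes. It ran from 83 to 252 with a median of 115, in a list that ran from 82 to 433 with a median of 119. Medians were 115 for promoter only, 114 for gene end only, 113 for both windows and 117 for neither, and the 4 classes overlapped. The quartiles of all regions were 103.75 and 134, so the class medians differed by less than the spread within the regions. Peaks were 105 to 255 bp wide with a median of 120 bp, and 131 regions had the smallest width in the list.

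**Figure D3:**
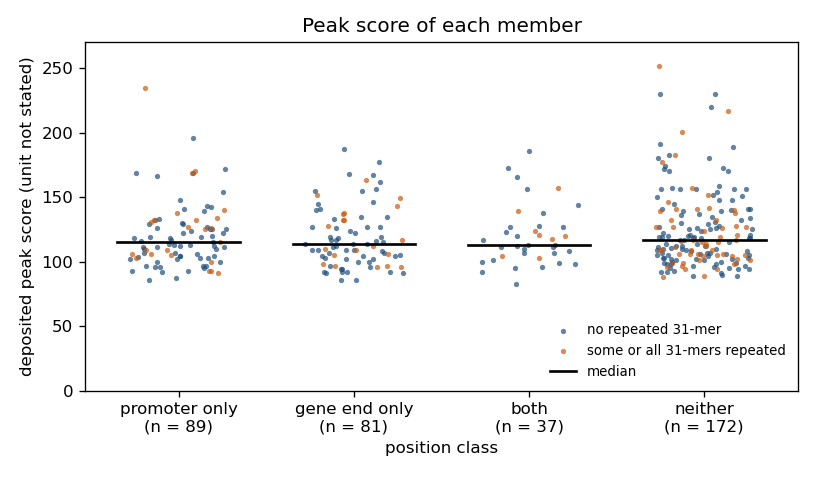
Deposited peak score (y axis, unit not stated) of each of the 379 regions by position class (x axis), with the median as a black line. Blue points have no repeated 31-mer and orange points have some or all repeated. Class medians lay between 113 and 117, and the highest score, 252, was a partly repeated region in neither window.

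High-scoring promoter regions stood before genes of several kinds. At chr5:20348041-20348175 (score 196) the midpoint was 507 bp before AT5G50010, which encodes the transcription factor bHLH145. At chr4:7959541-7959690 (169) it was 697 bp before PAP23 (AT4G13700), a purple acid phosphatase. At chr5:16177861-16178010 (166.5) it was 205 bp before MYB22 (AT5G40430), a MYB transcription factor, with the kinase gene MKK3 3692 bp away on the other side. All 3 lay between protein-coding genes that face away from each other. The share of this orientation was not computed for promoter regions or promoter bases. Around all 379 regions, the nearest genes of any kind faced away in 28.5%, against 33.3% of arm bases.

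Gene-end regions included short convergent gaps. The region at chr1:6997996-6998130 (187) lay in a gap of 391 bp, 120 bp past AT1G20180 and 272 bp past EXPA11 (AT1G20190), an expansin that loosens cell walls. The region at chr4:6990751-6990855 (168) was 58 bp past AT4G11540, which encodes a C1 domain protein. The protein-coding gene on its other side was the receptor-like kinase gene CRK34, in convergent orientation with 1067 bp between the 2 genes. That space also holds the lncRNA gene AT4G05890, 265 bp from the midpoint. At chr3:1096681-1096785 (167) the midpoint was 742 bp past AT3G04180, between a pair of cupin genes. At chr5:2840461-2840580 (177) it was 887 bp past AT5G08720 and also 101 bp before MIR166d, the precursor of a microRNA that targets class III homeodomain leucine zipper transcripts. MicroRNA genes were not counted as promoters here. The other region nearest to a microRNA gene, named after its values were seen, was chr3:22122856-22123020 (156), whose midpoint was 2 bp before MIR827, a precursor known from phosphate starvation.

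Regions in both windows lay in gaps of up to 2988 bp between genes of any kind. Among those with no repeated 31-mer and clear of genes, the highest scores were at chr1:20924896-20925000 (186), 93 bp past AT1G55947, an F-box gene, and 361 bp before CYP708A1, a cytochrome P450 gene, chr3:9052366-9052515 (172.5), 428 bp before the protein kinase gene AT3G24790, and chr5:4614766-4614885 (166), 337 bp before the carboxylesterase gene CXE16. The next was chr5:16871641-16871775 (156), 336 bp before AT5G42220. In neither window, high-scoring unrepeated regions included chr5:24155836-24156000 (230), 2717 bp before AT5G59990, a gene of the CCT motif family. Others were chr1:11336131-11336355 (220), 1293 bp before a copper amine oxidase gene, and chr1:23164606-23164710 (191), between FMO GS-OX3 and FMO GS-OX4, which oxidise glucosinolates. The region at chr1:27038101-27038250 (189) lay 2994 bp before a MATE efflux gene and 15854 bp from SUC1, a sucrose-proton symporter. Of the 10 highest scores, 8 were in neither window, as were 172 of all 379 regions (45.4%). Among the 8, the nearest protein-coding boundary was as close as 1046 bp, just past the 1000 bp limit.

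Some genes had more than 1 region within 1000 bp. The neighbouring receptor-like kinase genes CRK31 and CRK32 had regions with scores of 127 and 128 between them, 1 of them 249 bp past CRK31 and the other 285 bp before CRK32. AT5G03600, an esterase gene, had regions 295 and 55 bp before its start (107 and 125). AT4G19340, AT5G20460, AT1G57775 and the pseudogene AT1G32820 also had 2 each, and AT5G00635, an RNA gene without known product, had 3. Every 31-mer was found again elsewhere for the regions at AT5G00635 and AT1G32820, and for 1 each at AT4G19340 and AT5G20460. The place of these regions is therefore uncertain. In all, 34 regions lay in 17 pairs with less than 1 kb between them, and 277 windows of 100 kb held a region, 216 of them only 1.

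Pseudogenes were more frequent neighbours than over all arm bases. The nearest gene of any kind was protein-coding for 288 regions (76.0%, against 82% of arm bases), a pseudogene for 53 (14.0%, against 6.37%), a lncRNA gene for 19 (5.01%, against 7.62%) and another RNA gene for 15 (3.96%, against 2.06%). A tRNA gene was nearest to 2 regions (0.528%, against 1.09%) and a microRNA gene to 2 (0.528%, against 0.863%). A pseudogene was nearest to 31 of 92 regions under 1 Mb from a zone (33.7%), 15 of 120 between 1 and 4 Mb (12.5%) and 7 of 167 farther out (4.19%). No share of arm bases was computed by distance, so this gradient cannot be told apart from that of arm sequence. A pseudogene stood on either side of 72 regions (19.0%, against 11.4%). The highest score of all, 252 at chr3:11438101-11438250, was between pseudogene AT3G29618 and the lncRNA gene AT3G05805.

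Product names were grouped by keyword, and a gene could fall in more than 1 group. Among the 363 distinct nearest protein-coding genes, F-box names were found for 15 (4.13%, against 2.33% of 25203 arm genes) and transcription factor or DNA-binding names for 28 (7.71%, against 5.05%). Receptor kinase genes numbered 10 (2.75%, against 1.2%), of which CRK5, CRK8, CRK31 and CRK32 are cysteine-rich receptor-like kinases. Defensin, thionin or other cysteine-rich names, receptor kinases aside, were found for 7 (1.93%, against 1.29%) and disease resistance names for 5 (1.38%, against 0.706%). Ubiquitin-related or RING names were found for 12 (3.31%, against 3.18%), auxin-related names for 4 (1.10%, against 0.611%) and transposon-related names for 3 (0.826%, against 0.274%). Pentatricopeptide repeat proteins, which act on organelle RNA, made up 3 (0.826%, against 1.04%), cytochrome P450 genes 3 (0.826%, against 0.952%), ribosomal protein genes 2 (0.551%, against 1.28%) and hypothetical proteins 1 (0.275%, against 0.742%). Self-incompatibility names were found for 0, against 0.246%, and seed storage or late embryogenesis names for 0, against 0.786%. With so few genes in each group, and no test, none of these shares was called different.

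Lists of genes of related pathways were also searched. Of the matched genes, 0 of 19 in RNA-directed DNA methylation, 0 of 16 in maintenance of DNA methylation and heterochromatin, 0 of 18 Polycomb genes and partners, 0 of 19 abscisic acid genes and 0 of 22 flowering-time genes had a region within 1000 bp. The lists also hold genes inside the zones, among them DCL3, CLSY1, DRD1 and LD, where the selection rule allowed no region. Of all arm protein-coding genes 269 (1.07%) had one, so few or none would be met in lists of this size. The list genes nearest to a region were FVE, a flowering-time regulator, at 3008 bp and ABI4, a transcription factor of abscisic acid signalling, at 6289 bp. SUVH9, which binds methylated DNA, was the list gene that directly flanked a region, 7744 bp from chr4:7834696-7834800 (102).

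Regions were denser towards the zones. There were 12.5 per Mb of arm sequence outside genes, from 11.05 on chromosome 3 to 13.6 on chromosomes 4 and 5, against 52.4 per Mb for the 642 FLAG-NDX-only peaks outside genes in the zones. Within 0.5 Mb of a zone there were 59 regions, or 27.0 per Mb, and between 8 and 20 Mb away there were 55, or 7.08 per Mb. The share of regions with no repeated sequence was 45.8% in the nearest of these classes and 90.9% in the farthest. That share was not computed for arm windows by distance, so it has no matching background. The part of repeated sequence in the density was not tested.

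**Figure D4:**
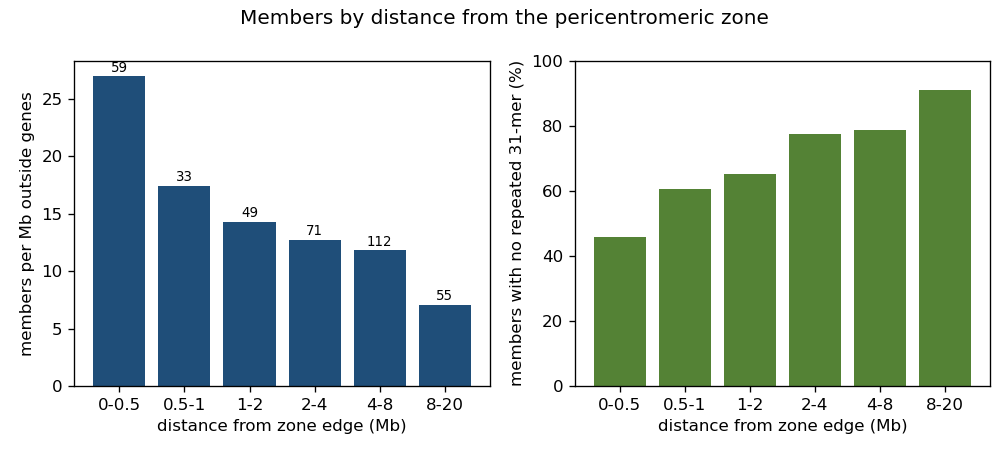
Regions per Mb of arm sequence outside genes (left, with the number of regions above each bar) and percentage of regions with no repeated 31-mer (right), by distance from the nearest edge of a pericentromeric zone in Mb. Density was 27.0 per Mb nearest to the zones and 7.08 farthest out, and the unrepeated share 45.8% and 90.9%. The unrepeated share of arm windows was not computed for these classes.

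Repeated sequence was measured as 31-mers found again, on either strand, elsewhere in the nuclear or organelle sequences. No repeated 31-mer was found in 272 regions (71.8%, interval 66.9 to 76.2), against 85.9% of arm windows of 135 bp outside genes. All 31-mers were repeated in 51 regions. Among FLAG-NDX-only peaks in the zones 25.1% had none, and among the 28 shared arm peaks 53.6% had none. A near-identical copy elsewhere was found for 70 regions, of which 30 had exactly 1 copy and 19 had 10 or more. The copy lay within 200 kb for 48 of the 70. A copy was itself under a FLAG-NDX peak for 15 of the 70 and under an NDX-GFP peak for 10. Copies and full repetition were not measured in arm windows, so the counts of both have no background share. Reads from identical stretches cannot be assigned to 1 copy, so the place of the 51 fully repeated regions is uncertain.

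The densest clusters were in such copies. A tandem array of ECA1 gametogenesis related genes on chromosome 5 held 6 regions from chr5:14332981-14333100 (97) to chr5:14386696-14386815 (132), with the highest score, 170, at chr5:14362351-14362485, 42 bp before AT5G36480. Each of the 6 had 23 to 32 copies, the nearest 2187 to 2197 bp away. The next 100 kb held 9 regions, the most in any window, with scores of 103 to 183 and nearest copies 59299 to 59300 bp away. They stood beside F-box genes, genes of U3 small nucleolar RNA-associated proteins and Pol-like polyprotein genes. On chromosome 1, 6 regions with scores of 104 to 235 lay around CC-NBS-LRR disease resistance genes and a gene of a TFIIIC-like protein, with nearest copies 11566 to 36258 bp away. The highest of them, chr1:21776776-21776940, was 93 bp before AT1G58766. Another 6 regions lay on chromosome 5 between 20576311 and 20609340, with scores of 96 to 141. Each had 1 copy, 33340 to 33342 bp away.

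The base composition of the regions was narrow. The central 135 bp had a median GC content of 32.6% (quartiles 29.6 and 36.3), against 29.6% (25.2 and 34.1) in arm windows outside genes. Very AT-rich sequence was scarce: 15 regions (3.96%) were under 25% GC, against 21.6% of windows. At the other end 18 regions (4.75%) were at 40% GC and over, against 7.11%. The lowest whole-peak value, 19.0%, was at chr2:14864356-14864460 (97), 315 bp before the B3 transcription factor gene AT2G35310, and the highest, 45.2%, at chr3:17541241-17541375 (106), whose midpoint was 1 bp before MYB94, a regulator of cuticular wax.

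**Figure D5:**
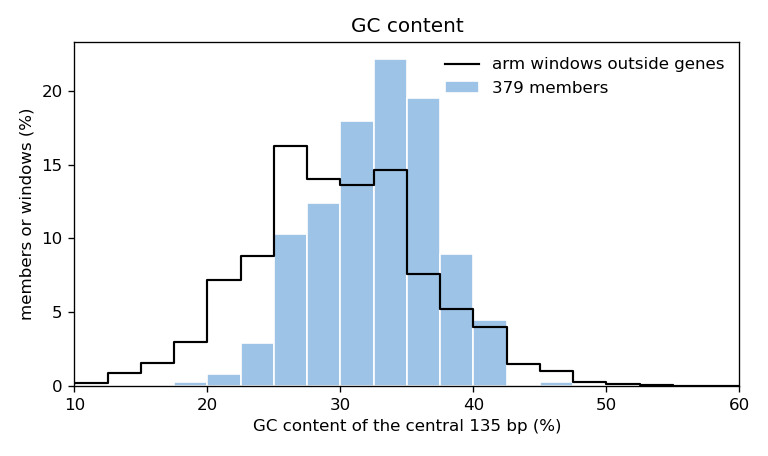
Percentage of the 379 regions (bars) and of arm windows outside genes (line) by GC content of the central 135 bp, in bins of 2.5 percentage points. The regions centred on a median of 32.6% and the windows on 29.6%, with a wider low tail in the windows.

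Short motifs in the central 135 bp were no commoner than in arm windows for most of the 11 searched. The homeodomain core TAATTA was in 44 regions (11.6%), against 17.7% of windows, and CAATNATTG, the box of homeodomain leucine zipper proteins, in 2 (0.528%), against 0.539%. The A run AAAAAAAAA was in 23 (6.07%, against 10.9%), TATATATA in 9 (2.37%, against 5.54%) and the G-box CACGTG in 4 (1.06%, against 2.15%). GAAGAAGAA was in 11 (2.90%, against 1.31%), the telobox AAACCCTA in 8 (2.11%, against 1.4%) and GAGAGAGA in 4 (1.06%, against 1.47%). CACACACA was in 4 (1.06%, against 1.02%), GGGNNNGGG in 3 (0.792%, against 0.925%) and CCGG in 24 (6.33%, against 6.63%). The motifs of A and T alone were the furthest below the windows in percentage points, and the regions were also richer in GC. The part of GC content in these shares was not tested.

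Compared with other peaks outside genes, the regions differed most from those in the zones, where 6.39% were in the promoter window, 6.70% in the gene-end window and 88.0% in neither. Gene density also differs between arms and zones. The 28 arm peaks shared with NDX-GFP had 42.9%, 46.4% and 32.1%, and the 63 NDX-GFP-only arm peaks 34.9%, 30.2% and 41.3%. The intervals of both sets were wide and held the value of the regions. The shared peaks had a median score of 133.75, against 115. The distance from a region to the nearest NDX-GFP peak had a median of 144285 bp, and 7 regions lay within 1000 bp of one, the nearest 345 bp away at chr5:14850001-14850180 (156).

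The selection limits passed through a continuous set of peaks. The peak kept nearest to a zone edge was chr1:12790921-12791070 (169), 9005 bp outside, and the nearest left out was chr1:12800026-12800220 (125), 122 bp inside. The smallest overlap with an NDX-GFP peak that removed an arm peak was 60 bp, at chr3:68791-68940 (112). A peak at chr5:17020981-17021130 (97) was left out because its midpoint was 1 bp inside a gene. The peak itself touched a gene in 24 of the regions and was clear of genes in 355.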

How the data were processed

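Peak lists of the FLAG-NDX and NDX-GFP lines were analysed as deposited by the authors, with chromosome, start, end, name and score. The deposited score has no stated unit, and was used only for order and description. The submitters' processing notes name Bowtie2, SAMtools, Picard, deepTools and MACS2 and the genome build TAIR10, without versions or roles, and the way each line's 2 immunoprecipitations became 1 list is not given in the sources used here. The supplied article does not describe this experiment.

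Positions were read against the TAIR10.1 RefSeq assembly, in which 0 peaks reached beyond a chromosome end. Coordinates are printed 1-based. Midpoints were counted from 0, and counting them from 1 gave 378 regions in place of 379. Background shares were computed over arm bases outside genes, or over consecutive windows of 135 bp for GC content, repeats and motifs. Copies were found with blastn 2.17.0 at 90% coverage, 95% identity and an e-value of 1e-10. Other steps used Python 3.11.15, numpy 2.4.6, pandas 2.3.3 and scipy 1.17.1, and were tested on simulated peaks and repeats with known answers.

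The regions, gene lists and motifs were chosen with earlier results of these data known. Regions were named by a fixed rule: the 10 highest scores, the 4 highest of each position class among unrepeated regions clear of genes, the extremes of GC content, the region nearest to an NDX-GFP peak, those at the selection limits, and genes with 2 or more regions within 1000 bp. Sequences were printed from the 2 highest of each class. Of the regions the rule names, 2 are not reported here. The ECA1 array, the chromosome 1 cluster and the chromosome 5 cluster of regions with 1 copy each were described after their values were seen. The product-name groups were redrawn after their values were seen, to ignore letter case and to keep receptor kinases apart. Alternatives to the overlap, zone, gene, window, score and k-mer settings were tried.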

Additional observations from a re-analysis of the deposited data

How the results depend on the processing

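No paired analysis was possible because the 2 immunoprecipitations of a line are pooled in 1 list, and for the same reason no replicate could be left out. Of 75 alternative values, 60 were classed as unmoved and 15 as moved. An unmoved value can still lie far from the reported one. Counts of 494 regions (zones of 1.5 Mb on either side) and 265 (4 Mb) were so classed, beside the reported 379. So was a median score of 138.5 with only scores at or above the list median, beside 115. The number of regions was 168 with only scores at or above the list median, and at most 494, with zones of 1.5 Mb on either side. Those narrower zones put 51.4% of regions in neither window. Zones of 4 Mb on either side gave a gene-end share of 36.2% and an unrepeated share of 78.9%. Without pseudogenes as a reason to exclude, the promoter share was 27.9%, the share in neither window 53.6% and the unrepeated share 66.5%. With windows of 500 bp the promoter, gene-end and neither shares were 18.7%, 17.9% and 66.5%, against 29.0%, 21.1% and 55.7% of arm bases. With windows of 2000 bp they were 57.5%, 45.4% and 23.5%, against 66.8%, 49.7% and 14.5%. The promoter share was below, and the share in neither window above, that of arm bases at each of these 3 window lengths. The unrepeated share was 56.5% with 21-mers and 78.6% with 51-mers. The cause of each move beyond the changed setting was not tested. Precision is limited by the unknown depth and by 1 pooled score for each peak.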
